A study of Homo sapiens with 6 samples.

Results

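The CDK inhibitor genes encode the proteins that hold cyclin-dependent kinases in check. Here these genes were followed in U-937 cells, a human line of the monocyte lineage. The 8 symbols CDKN1A, CDKN1B, CDKN1C, CDKN2A, CDKN2B, CDKN2C, CDKN2D and CDKN3 were matched by name. Of these, 7 had a row among the 26810 rows that are not spike-ins, and CDKN1C is not analysed here. All 7 passed the filter on low values, by which at least 3 of the 6 libraries had to reach a value of 1. The tested cells carried Cas9 and the guide sgMETTL1.3, against METTL1, and the control cells carried Cas9 and the guide sgNS, with 3 libraries in each group. Every library came from 1 Cas9 clone of U-937 with lentiviral guide delivery, selection in blasticidin at 10 µg/ml and hygromycin B at 200 µg/ml, and harvest at day 8 to 10. The labels give every library the genotype KMT2A-MLLT10 fusion, which is quoted as the labels word it and was not checked here. Only 1 guide against METTL1 was used, so effects of that guide other than loss of METTL1 cannot be told apart. The labels do not say whether replicates were separate cultures, and the spread behind every p-value may therefore be technical.

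Cyclin-dependent kinases drive the cell cycle when bound to cyclins, and the inhibitor proteins fall into a pair of families. The CIP/KIP proteins p21 (CDKN1A), p27 (CDKN1B) and p57 (CDKN1C) bind complexes of CDK2 with cyclin E or A. The INK4 proteins p16 (CDKN2A), p15 (CDKN2B), p18 (CDKN2C) and p19 (CDKN2D) bind CDK4 and CDK6 and keep D-type cyclins from activating them. CDKN3 shares the name but encodes a phosphatase that removes the activating phosphate from CDK2. In myeloid cells p21 and p27 are known to accumulate as cells stop dividing and differentiate. METTL1, the targeted gene, encodes a methyltransferase that modifies guanosine in tRNA.

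The promoter windows below show 4 transcription starts that the values turn on. CDKN1A is the member that rose, CDKN1B is its CIP/KIP relative, and the pair of CDKN2A starts feeds a single row of the table. Each window runs from 250 bases before to 50 bases from a start, on the strand of the gene, from RefSeq on GRCh38.p14. The table of windows held 7 of the 8 members. Capitals mark the GC box GGGCGG, the letters bound by SP1-type factors, on either strand, and matches may overlap.
CDKN1A promoter (chr6:36678464-36678763, plus strand): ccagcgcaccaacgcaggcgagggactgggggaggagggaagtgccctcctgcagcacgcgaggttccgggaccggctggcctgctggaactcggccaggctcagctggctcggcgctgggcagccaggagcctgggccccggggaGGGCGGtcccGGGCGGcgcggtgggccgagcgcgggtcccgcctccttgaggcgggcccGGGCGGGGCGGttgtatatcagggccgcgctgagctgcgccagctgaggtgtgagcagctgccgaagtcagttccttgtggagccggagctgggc
CDKN1B promoter (chr12:12717118-12717417, plus strand): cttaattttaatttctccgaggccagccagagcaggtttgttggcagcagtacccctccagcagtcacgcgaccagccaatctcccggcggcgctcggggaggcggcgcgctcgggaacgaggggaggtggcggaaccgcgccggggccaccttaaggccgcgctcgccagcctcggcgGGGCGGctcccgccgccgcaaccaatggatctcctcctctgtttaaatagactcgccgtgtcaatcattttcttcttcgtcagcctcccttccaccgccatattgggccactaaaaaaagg
CDKN2A upstream start (chr9:21995275-21995574, minus strand): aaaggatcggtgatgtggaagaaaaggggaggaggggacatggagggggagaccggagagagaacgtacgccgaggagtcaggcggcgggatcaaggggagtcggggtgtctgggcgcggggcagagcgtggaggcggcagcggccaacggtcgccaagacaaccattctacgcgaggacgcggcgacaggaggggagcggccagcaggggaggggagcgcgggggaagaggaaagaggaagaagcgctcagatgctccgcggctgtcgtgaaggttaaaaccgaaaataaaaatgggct
CDKN2A downstream start (chr9:21974808-21975107, minus strand): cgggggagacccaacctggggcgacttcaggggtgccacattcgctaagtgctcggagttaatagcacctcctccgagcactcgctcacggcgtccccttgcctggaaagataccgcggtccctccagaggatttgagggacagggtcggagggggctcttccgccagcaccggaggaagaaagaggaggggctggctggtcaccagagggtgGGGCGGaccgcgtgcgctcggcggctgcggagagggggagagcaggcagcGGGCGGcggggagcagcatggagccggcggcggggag
The CDKN1A window held 4 GC box matches, 2 of which overlap, and the CDKN1B window held 1. The CDKN2A upstream window held 0 and the downstream window 2. Among all 35116 promoter windows of this length, 45.0% held at least 1 match. Neither the E-box CACGTG, the letters bound by MYC with MAX, nor the TATA box TATAAA was found in these 4 windows, and 7.26% and 11.5% of all windows hold them. These matches describe letters and show no binding. The upstream CDKN2A start begins the transcript of ARF, a protein that restrains MDM2, and the downstream start, 20467 bases away, begins the transcript of p16. The table has 1 row for the gene, so p16 and ARF cannot be told apart.

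The deposited values are TPM (the usual relative abundance per transcript length) multiplied by 1 factor per library, which sets the 92 ERCC spike-in RNAs to the same sum. The sum of all values ranged from 831969 to 1025123 in sgMETTL1.3 libraries and from 1129183 to 1227168 in sgNS libraries, and the read depth is unknown. The targeted transcript was lower in sgMETTL1.3 cells, with METTL1 values of 8.28, 5.94 and 7.42 in sgMETTL1.3 libraries and 19.7, 22.0 and 20.3 in sgNS libraries (log2 fold change -1.41, limma adjusted p = 2.41e-06). On this scale 797 of 12449 tested genes rose and 6142 fell, and the median log2 fold change was -0.32. As TPM, here taken without the spike-in rows, 3093 rose and 3147 fell, and the median was 0.01. The library sgMETTL1.3 replicate 1 stood apart. Across genes, which are not independent replicates, the Spearman correlation of its deviation from the group mean with transcript GC content was 0.838, against values of 0.0397, -0.342 and 0.321 for the sgNS libraries. The values of sgMETTL1.3 replicates 2 and 3 were -0.731 and -0.745. Deviations from a mean of 3 libraries sum to 0, so these values are not independent of that of replicate 1. The myeloid markers SPI1, CD33, LYZ, ITGAM and CD68 were expressed, whereas CD14 and MPO stayed below 1 in the mean of each group. Summed markers of T cells (at most 0.0664), erythroid cells (0) and epithelium (at most 0.123) were at or near 0 in every library. B cell markers summed to between 4.26 and 8.18 in sgMETTL1.3 libraries and between 3.69 and 5.31 in sgNS libraries, and fibroblast markers to between 1.78 and 3.16 in sgMETTL1.3 and between 1.22 and 1.56 in sgNS libraries, with MS4A1 and COL1A2 at 0 in every library. On the spike-in scale the fibroblast marker COL1A1 rose (0.62), and as TPM both COL1A1 (0.83) and the B cell marker CD79A (0.60) rose. Myeloid markers summed to between 448 and 593 in sgMETTL1.3 libraries and between 877 and 947 in sgNS libraries. The largest difference among them was that of LYZ, which averaged 72.1 ± 7.48 in sgMETTL1.3 and 404 ± 16.3 in sgNS. On the spike-in scale 4 of 6 tested were lower, beside 49.3% of all genes, and SPI1 and CD68 did not pass. As TPM 3 of the 6 were lower and CD68 was higher (0.31), beside 25.3% of all genes lower and 24.8% higher. The part of these marker levels in the results was not tested.

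CDKN1A rose about 2-fold in sgMETTL1.3 cells and was the CDK inhibitor gene that rose on the spike-in scale. CDKN1B, CDKN2B and CDKN3 fell, and CDKN2A, CDKN2C and CDKN2D did not pass the test. Thus 1 of 7 rose and 3 of 7 fell, where 6.40% of all tested genes rose and 49.3% fell. On that scale 4 of the 7 genes had groups that did not overlap, 1 higher and 3 lower, as 8.66% and 53.4% of all tested genes did. The members had a median log2 fold change of -0.18, beside -0.32 for all tested genes. In these bulk libraries a smaller share of cycling cells and less RNA of a gene per cell cannot be told apart. Each library was made from 300 ng of total RNA, so values on the spike-in scale need not be per cell. Total RNA per cell is not given here, and its part in the lower median was not tested. As TPM, 2 of 7 rose (CDKN1A and CDKN2D) and 0 fell with limma, with 0 lower also at an unadjusted p under 0.05. Among all genes as TPM, 24.8% rose and 25.3% fell, and the member median was 0.17 beside 0.01. Groups did not overlap as TPM for these 2 members, both higher, and for 30.9% of all genes higher and 32.1% lower. The count of 2 higher and 0 lower members also held with median-ratio scaling (25.8% and 26.4% of all genes), quantiles (23.9% and 26.0%), TPM with GC correction (30.4% and 34.2%) and TPM without sgMETTL1.3 replicate 1 (36.3% and 34.3%). The lower calls of CDKN1B, CDKN2B and CDKN3 were made on the spike-in scale, on which the median of all genes was below 0. None of the 3 was called lower in these other settings. With quantiles CDKN2B was close to a call (-0.28, limma adjusted p = 0.0566), with 1 member lower at an unadjusted p under 0.05. The reason for the difference between scales was not tested.

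**Figure D1:**
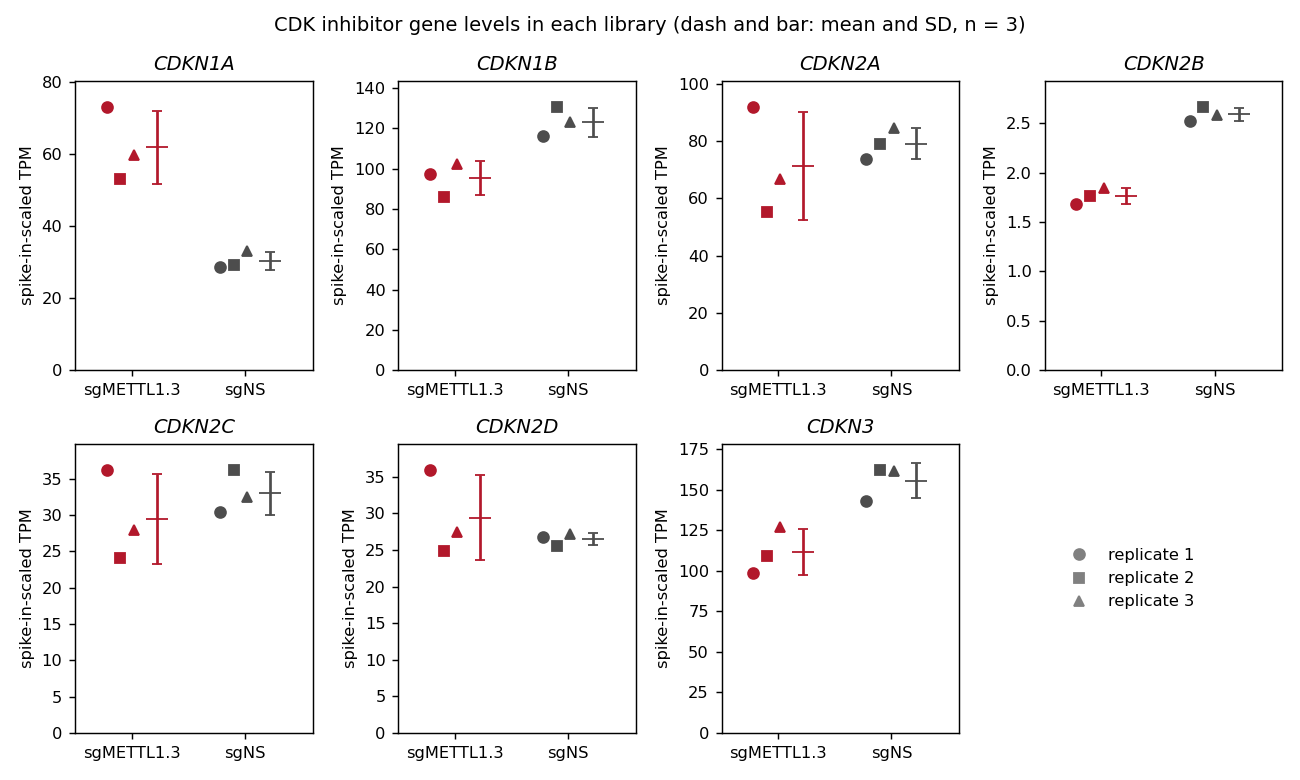
Spike-in-scaled TPM of the 7 CDK inhibitor genes in each library, with sgMETTL1.3 (red) left of sgNS (grey) and the mean with SD (n = 3) beside the points. The sgMETTL1.3 libraries lie between 53.01 and 73.0 for CDKN1A, above all sgNS libraries, and below all of them for CDKN1B, CDKN2B and CDKN3.

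CDKN1A encodes p21, the inhibitor that blocks CDK2 complexes and binds the replication clamp PCNA. Its values were 73.0, 53.01 and 59.6 in sgMETTL1.3 libraries, against 28.5, 29.2 and 33.1 in sgNS libraries. The lowest sgMETTL1.3 library was above the highest sgNS library, and replicate 1 was the highest. The means were 61.9 ± 10.2 in sgMETTL1.3 and 30.3 ± 2.45 in sgNS (SD, n = 3 each), 2.04-fold higher. On the log2(value + 1) scale the log2 fold change was 1.00 (SE 0.126, limma adjusted p = 2.37e-05), the 100th highest of 12449 tested genes. As TPM, CDKN1A averaged 68.7 ± 4.57 in sgMETTL1.3 and 26.3 ± 1.87 in sgNS, 2.61-fold higher (log2 fold change 1.35, limma adjusted p = 7.4e-05). On the spike-in scale the log2 value was 0.85 with values corrected for GC content and 0.87 when sgMETTL1.3 replicate 1 was left out. In all 18 alternative fits CDKN1A stayed higher and past the threshold, with a limma adjusted p of at most 0.00194. The lowest, 3.15e-18, came from GC correction of the deposited values, a fit that pooled the spread fully across most genes. The gene lies on the plus strand of chromosome 6 at 36676460 to 36687339 (GRCh38, GENCODE release 29). DINOL, a non-coding gene, overlaps it in antisense, and without a stated strand setting reads in the overlap could belong to either.

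CDKN1B, which encodes p27, had the second highest level of the 7 genes and fell on the spike-in scale by about as much as the median gene. Its values were 97.4, 85.9 and 102 in sgMETTL1.3 libraries, against 116, 130 and 122.9 in sgNS libraries. Every sgMETTL1.3 library was below every sgNS library. Its log2 fold change was -0.37 (SE 0.104, limma adjusted p = 0.00827), 0.05 below the median of all genes. Without sgNS replicate 2 it was -0.33 and did not pass (adjusted p = 0.0588), and adjusted p ran between 0.000268 and 0.979 over all alternatives. As TPM, CDKN1B averaged 106 ± 6.94 in sgMETTL1.3 and 107 ± 2.37 in sgNS (SD, n = 3 each), and the groups overlapped. The log2 fold change as TPM was -0.01, with a 95% interval from -0.16 to 0.14. CDKN1B lies on chromosome 12 at 12715058 to 12722371, plus strand.

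The INK4 genes CDKN2A, CDKN2C and CDKN2D had values in sgMETTL1.3 cells that overlapped those of sgNS cells. CDKN2A had values of 91.9, 55.1 and 66.9 in sgMETTL1.3 libraries, against 73.7, 79.2 and 84.5 in sgNS libraries. Replicate 1 was above every sgNS library and the other 2 sgMETTL1.3 libraries were below every one. CDKN2A did not pass with limma (log2 fold change -0.18, SE 0.168, adjusted p = 0.40). CDKN2C, which encodes p18, had values of 36.2, 24.1 and 28.0 in sgMETTL1.3 libraries, against 30.4, 36.2 and 32.5 in sgNS libraries. Here too replicate 1 was highest of its group, and the log2 fold change was -0.18 (SE 0.143, limma adjusted p = 0.317). Without sgMETTL1.3 replicate 1, CDKN2A and CDKN2C passed as lower (-0.37, adjusted p = 0.00126, and -0.33, adjusted p = 0.00561). After GC correction they did so as well (-0.38 and -0.33). In each of these 2 fits 1 member rose and 5 fell. After GC correction 8.20% of all genes rose and 61.4% fell, and without that replicate 6.43% rose and 61.4% fell. Both fits pooled the spread fully across most genes. The longest transcripts of CDKN2A and CDKN2C have a GC content of 61.4% and 58.1%, against a median of 48.5% over tested genes. Over all alternatives, adjusted p ran between 0.000124 and 0.953 for CDKN2A and between 0.00121 and 0.780 for CDKN2C.

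CDKN2D, which encodes p19INK4d, had values of 35.9, 24.9 and 27.5 in sgMETTL1.3 libraries, against 26.8, 25.6 and 27.1 in sgNS libraries. On the spike-in scale the groups overlapped, and the log2 fold change was 0.13 (SE 0.132, limma adjusted p = 0.426). As TPM its levels were 36.4, 31.4 and 30.2 in sgMETTL1.3 libraries, against 24.6, 21.5 and 23.2 in sgNS libraries. Every sgMETTL1.3 library was above every sgNS library, and CDKN2D passed as higher with limma (log2 fold change 0.48, SE 0.0923, adjusted p = 0.00499). Without sgMETTL1.3 replicate 1 the log2 fold change was 0.40 as TPM, which passed, and -0.02 on the spike-in scale, which did not. After GC correction it was 0.29 as TPM, which passed, and -0.07 on the spike-in scale. Over all alternatives adjusted p ran between 0.000195 and 0.891. CDKN2D lies on chromosome 19 at 10566462 to 10569059, minus strand, and its longest transcript has a GC content of 61.3%.

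CDKN2B, which encodes p15, had the lowest level of the 7 genes, close to the filter on low values. Its values were 1.68, 1.76 and 1.84 in sgMETTL1.3 libraries, against 2.53, 2.66 and 2.58 in sgNS libraries. The groups did not overlap, and the log2 fold change was -0.38 (SE 0.128, limma adjusted p = 0.0221), understated at this level by the added 1. The call was lost without sgNS replicate 1 (-0.39, adjusted p = 0.0584), replicate 2 (-0.37, adjusted p = 0.0877) or replicate 3 (-0.38, adjusted p = 0.0906). Adjusted p ran between 0.00738 and 0.593 over all alternatives. As TPM, CDKN2B averaged 1.98 ± 0.261 in sgMETTL1.3 and 2.26 ± 0.0561 in sgNS (SD, n = 3 each), with overlapping groups and a log2 fold change of -0.13 (95% interval -0.36 to 0.10).

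CDKN3, the CDK2 phosphatase, had the highest level of the 7 genes. Its values were 98.6, 109 and 127 in sgMETTL1.3 libraries, against 143, 162 and 162 in sgNS libraries, and the groups did not overlap. Replicate 1 was the lowest library. The log2 fold change was -0.48 (SE 0.112, limma adjusted p = 0.0026), 0.16 below the median of all genes. As TPM, CDKN3 averaged 126 ± 22.3 in sgMETTL1.3 and 135 ± 3.71 in sgNS (SD, n = 3 each), and the groups overlapped. The log2 fold change as TPM was -0.12, with a 95% interval from -0.42 to 0.18, and adjusted p ran between 2.52e-05 and 0.822 over all alternatives. CDKN3 lies on chromosome 14 at 54396849 to 54420218, plus strand.

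**Figure D2:**
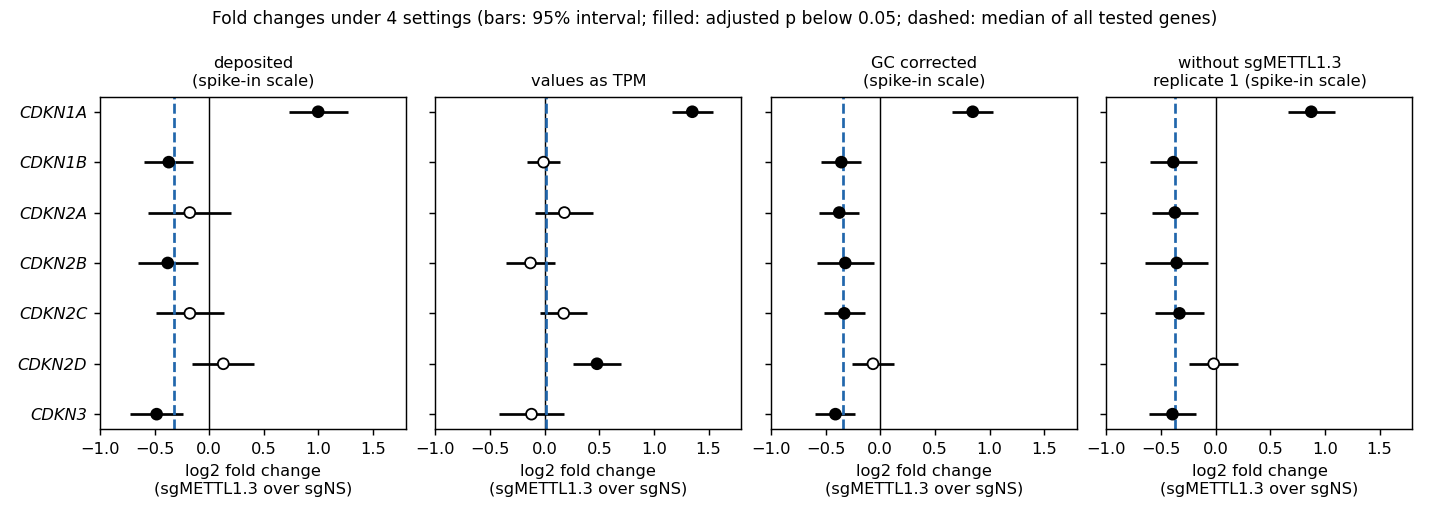
Log2 fold change of each CDK inhibitor gene, sgMETTL1.3 over sgNS, on the deposited scale, as TPM, after GC correction and without sgMETTL1.3 replicate 1. Bars are 95% intervals, filled points passed at an adjusted p of 0.05, and the dashed line is the median of all tested genes; CDKN1A lies to the right in all 4 panels, at 1.00, 1.35, 0.85 and 0.87.

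The order of levels shows how the set of inhibitor transcripts was made up. Levels are given as TPM, which is per transcript length. In sgMETTL1.3 cells CDKN3 (126) and CDKN1B (106) led and overlapped, followed by CDKN2A (78.7) and CDKN1A (68.7), which also overlapped. CDKN2D (32.6) and CDKN2C (32.6) followed with overlapping ranges, and CDKN2B (1.98) was last. In sgNS cells the order was CDKN3 (135), CDKN1B (107) and CDKN2A (68.8), each clear of the next. CDKN2C (28.7), CDKN1A (26.3) and CDKN2D (23.1) came after, where each overlapped its neighbour, and CDKN2B (2.26) was last. CDKN1A thus stood at rank 4 in sgMETTL1.3 cells, clear of CDKN2D below it, and at rank 5 in sgNS cells, within the range of its neighbours.

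As a share of the summed level of the 7 genes, which no library factor can change, CDKN1A made up 16.8%, 14.97% and 14.4% in sgMETTL1.3 libraries, against 6.78%, 6.28% and 7.12% in sgNS libraries. CDKN1B made up 23.8 ± 1.24% in sgMETTL1.3 and 27.3 ± 0.795% in sgNS (SD, n = 3 each). CDKN3 made up 22.7%, 30.9% and 30.7% in sgMETTL1.3 libraries, against 34.0%, 34.9% and 34.8% in sgNS libraries, so all 3 sgMETTL1.3 libraries were lower. CDKN2A had 17.6 ± 3.04% in sgMETTL1.3 and 17.6 ± 0.603% in sgNS, with replicate 1 at 21.1%. The shares are tied together, since a larger share of 1 gene lowers those of the others. The summed level itself was 435, 354 and 413 on the spike-in scale in sgMETTL1.3 libraries, against 421, 465 and 464 in sgNS libraries. As TPM it was 441, 446 and 453 in sgMETTL1.3 libraries, against 386, 391 and 397 in sgNS libraries. The groups overlapped on the first scale and did not on the second.

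**Figure D3:**
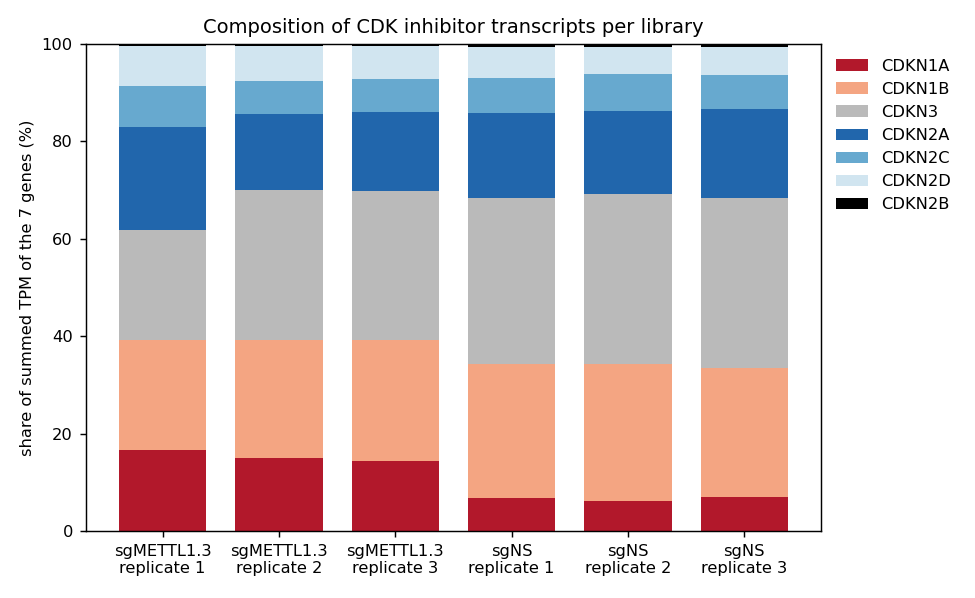
Share of each gene in the summed TPM of the 7 CDK inhibitor genes, in percent, with 1 bar per library and sgMETTL1.3 libraries on the left. The CDKN1A part at the foot of the bar is 14.4% to 16.8% in sgMETTL1.3 and 6.28% to 7.12% in sgNS libraries.

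Ratios of inhibitor to partner transcripts within a library are also free of the library factor, and 4 were compared. CDK2 is the kinase bound by p21 and p27, and CDK1 is the mitotic kinase. The ratio of CDKN1A to CDK2 was 1.48, 1.16 and 1.12 in sgMETTL1.3 libraries, against 0.380, 0.346 and 0.400 in sgNS libraries. CDKN1A was thus above CDK2 in every sgMETTL1.3 library and below it in every sgNS library. The difference of log2 ratios was 1.73 (SE 0.140), a 3.32-fold higher ratio. The ratio of CDKN1A to CDKN1B was 0.749, 0.617 and 0.583 in sgMETTL1.3 libraries, against 0.246, 0.224 and 0.269 in sgNS libraries, a log2 difference of 1.39 (SE 0.133).

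The ratio of CDKN1B to CDK2 differed by less. It was 1.98, 1.88 and 1.93 in sgMETTL1.3 libraries and 1.54, 1.54 and 1.48 in sgNS libraries (log2 difference 0.34, SE 0.0286). CDKN1B itself did not rise (log2 fold change -0.37, and -0.01 as TPM), while CDK2 fell (-0.70, and -0.34 as TPM). CDKN3 was above CDK1 in sgMETTL1.3 libraries, with ratios of 1.88, 1.76 and 1.81, and below it in sgNS libraries, with 0.825, 0.885 and 0.922. The log2 difference for this pair was 1.05 (SE 0.0543). CDKN3 itself did not rise (log2 fold change -0.48, and -0.12 as TPM), while CDK1 fell by more (-1.52, and -1.16 as TPM). All 4 ratios were higher in 3 of 3 sgMETTL1.3 libraries than in any sgNS library. How often ratios of other gene pairs separate in this way was not tested. Among single genes as TPM, groups did not overlap for 30.9% higher and 32.1% lower, so the separation alone is no result about the inhibitors. Each of the 4 ratios had an exact two-sided permutation p of 0.1, also after Benjamini-Hochberg adjustment over the 4. That is the smallest p that 3 against 3 libraries allow, so none could pass 0.05.

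**Figure D4:**
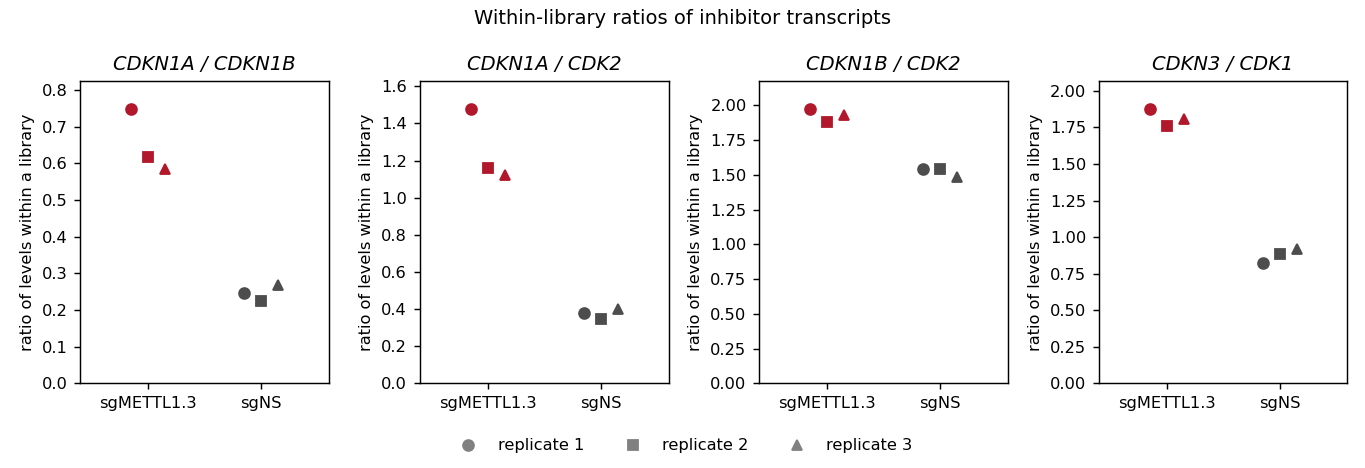
Ratio of levels within each library for CDKN1A to CDKN1B, CDKN1A to CDK2, CDKN1B to CDK2 and CDKN3 to CDK1, with axes from 0. The sgMETTL1.3 points (left in each panel) lie above the sgNS points in all 4, from 1.12 to 1.48 against 0.346 to 0.400 for CDKN1A to CDK2.

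The kinases and cyclins that these inhibitors act on mostly fell. Of 12 partner genes, 10 fell and 0 rose with limma (0 higher also at an unadjusted p under 0.05), with a median log2 fold change of -0.65, beside 49.3% lower and a median of -0.32 for all genes. As TPM, 6 fell and 0 rose, with a median of -0.29, beside 25.3% lower and a median of 0.01 for all genes. CDK1 averaged 61.6 ± 8.81 in sgMETTL1.3 and 177 ± 5.31 in sgNS (log2 fold change -1.52, limma adjusted p = 5.32e-07). CDK6, the INK4-bound kinase of blood cells, fell (-0.82), as did the D-type cyclin CCND2 (-1.02), the S-phase cyclin CCNA2 (-0.79) and the mitotic cyclin CCNB1 (-0.87). All 5 of these fell as TPM as well. Chosen after their values were seen, CDK2 fell (-0.70, and -0.34 as TPM) and CDK4 fell (-0.46), but CDK4 did not pass as TPM (-0.10). CCND1 (-0.14) and CCNE1 (-0.20) did not pass.

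Genes for the turnover of inhibitor proteins fell throughout the list of 10, with 0 higher with limma (0 also at an unadjusted p under 0.05) and a median of -0.72, beside 49.3% lower and a median of -0.32 for all genes. As TPM, 7 of 10 fell and 0 rose, with a median of -0.36, beside 25.3% lower and a median of 0.01 for all genes. PSME3, an activator of the proteasome known to promote p21 breakdown without ubiquitin, averaged 45.3 ± 3.96 in sgMETTL1.3 and 201 ± 8.06 in sgNS (log2 fold change -2.13, limma adjusted p = 2.5e-08). RBX1, the RING subunit of cullin ligases, fell (-1.09), as did the scaffold CUL4B (-1.02). DTL, which brings p21 to the CUL4 ligase, fell (-0.89), and CKS1B, the cofactor for p27 recognition, fell (-0.77). SKP2, the receptor for p27 in the SCF ligase, chosen after its values were seen, fell (-0.66, and -0.31 as TPM). These are transcript levels, and protein was not measured.

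Among 20 tested regulators of inhibitor gene transcription, 12 fell and 1 rose, with a median of -0.36, where 49.3% of all genes fell, 6.40% rose and the median was -0.32. As TPM, 6 fell and 2 rose, with a median of -0.01, beside 25.3% and 24.8% of all genes and a median of 0.01. As a whole this list was therefore close to the background. MYC, which represses CDKN1A through the factor ZBTB17, averaged 94.1 ± 19.1 in sgMETTL1.3 and 278 ± 9.63 in sgNS (log2 fold change -1.57, limma adjusted p = 2.59e-06). SP1, a factor that binds GC boxes, fell (-0.81). BMI1, a Polycomb repressor of CDKN2A, fell (-0.74), and GFI1, a myeloid repressor, fell (-0.56). The gene that rose was FOXO4, of a family that activates CDKN1B, chosen after its values were seen (0.39, adjusted p = 0.0193). It did not pass without sgMETTL1.3 replicate 3 (0.39) or sgNS replicate 1 (0.33). As TPM FOXO4 rose as well (0.73). Its relatives did not rise: on the spike-in scale FOXO3 fell (-0.33) and FOXO1 did not pass (-0.15), and neither passed as TPM.

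The retinoblastoma proteins and E2F factors, which act below the inhibited kinases, had 8 of 10 tested genes lower and 0 higher with limma (0 higher also at an unadjusted p under 0.05), with a median of -0.63, beside 49.3% lower and a median of -0.32 for all genes. As TPM, 5 fell and 1 rose, with a median of -0.27, where 25.3% of all genes fell and 24.8% rose. RB1 averaged 151 ± 20.2 in sgMETTL1.3 and 235 ± 13.2 in sgNS (log2 fold change -0.64), and did not pass as TPM (-0.28). Its relatives RBL1 (-0.76) and RBL2 (-0.90) fell, as did the repressor E2F genes E2F5 (-1.03) and E2F8 (-0.83).

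**Figure D5:**
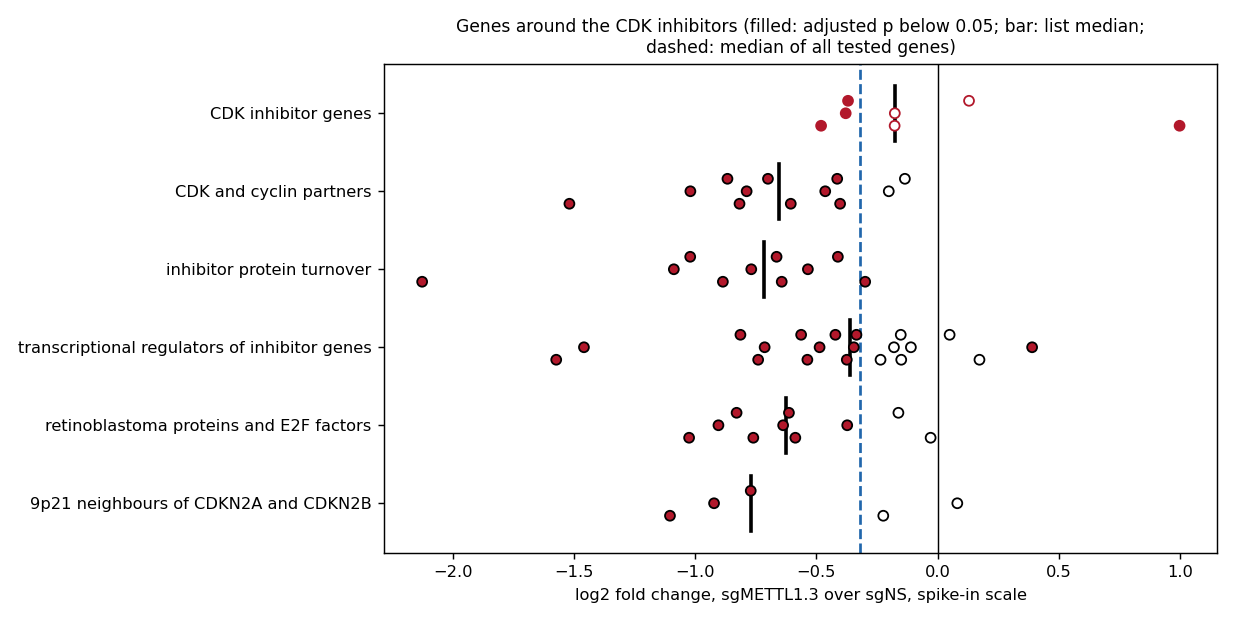
Log2 fold change on the spike-in scale for the 7 CDK inhibitor genes and for the tested genes of each list around them. Filled points passed at an adjusted p of 0.05, the short bar is the median of a list, and the dashed line is the median of all tested genes (-0.32); CDKN1A is the rightmost inhibitor gene at 1.00.

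CDKN2A and CDKN2B lie side by side at 9p21, on the minus strand of chromosome 9 at 21967753 to 21995301 and 22002903 to 22009363. The antisense gene CDKN2B-AS1 overlaps both on the other strand, where reads of either cannot be told apart without a strand setting. Its values were low, at 1.02 ± 0.241 in sgMETTL1.3 and 1.35 ± 0.160 in sgNS (SD, n = 3 each), with no pass (log2 fold change -0.22). The neighbour MTAP, a methionine salvage enzyme often lost with CDKN2A in tumours, averaged 17.7 ± 1.32 in sgMETTL1.3 and 39.2 ± 2.65 in sgNS (log2 fold change -1.10, limma adjusted p = 4.09e-06). HACD4 (-0.77) and FOCAD (-0.92) also fell, and all 3 fell as TPM, where 25.3% of all genes fell and 24.8% rose. KLHL9 had a log2 fold change of 0.08 that did not pass on the spike-in scale, and rose as TPM (0.43). IFNE was listed at 0 in every library, and DMRTA1 was at 0.0362 or below. With 3 of 5 tested neighbours lower, beside 49.3% of all genes, CDKN2A itself did not pass.

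The genes most like each member were ranked by the root mean square difference of log2(value + 1) over the 6 libraries, each centred on its sgNS mean, among 9652 genes with a mean of at least 5. For CDKN1A these were GNG7 (0.0396), AHRR (0.0848) and RHOBTB2 (0.0869), with log2 fold changes of 1.02, 0.91 and 0.91, and 8 genes lay within 0.1. The genes nearest to CDKN1B included NDUFS4 and RABIF, with 1333 genes within 0.1, and CDKN3 was nearest to MED4, KAT2B and TMEM168, with 773. CDKN2B was nearest to RPS6KC1, IFIH1 and DAAM1, with 1081 genes within 0.1. At its level (means of 1.76 in sgMETTL1.3 and 2.59 in sgNS) the added 1 shrinks the change, so these genes match a shrunken profile. CDKN2A was nearest to CHMP1A, DDIT4 and PLD2, with 400, CDKN2C to TMEM63A, RNF181 and ZNRF1, with 456, and CDKN2D to RPS6KB2, TMEM219 and RPS19BP1, with 267. How many genes lie within 0.1 depends on how many have a similar log2 fold change. The low count for CDKN1A thus follows from its rank, the 100th highest of 12449 tested genes, and is no separate result.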

How the data were processed

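Poly(A)-selected RNA libraries were made from 300 ng of total RNA with ERCC spike-ins, per the labels' protocols. The submitters' processing notes name cutadapt, STAR and RSEM with GRCh38 and hg38, and the annotation, strand setting and tool versions are unstated. Per library, the deposited signal values are TPM scaled by 1 factor per library to an equal spike-in sum, as read from the values. Genes that reached 1 in at least 3 libraries were tested with limma 3.58.1 (R 4.3.3, trend and robust, no block) on log2(value + 1), with Benjamini-Hochberg adjustment over all tested genes at 0.05. The added 1 makes fold changes of low genes too small. GC content came from the longest GENCODE release 29 transcript and covered 94.3% of tested genes.

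The fit was tested on simulated data for this comparison with 12449 genes, 200 of them changed. It called 28% of genes changed by 0.5 and 85% of those changed by 1 on the log2 scale, with 6 unchanged genes called. These genes were independent, so this is not the power of the real fit.

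Named genes were METTL1, the members, the 3 genes most like each, up to 5 genes with the smallest p of each list and all listed 9p21 neighbours. Results for some genes that this rule takes in are not reported here. Members and lists were chosen with earlier results of these data known. Alternatives were each library left out in turn, other scalings, pseudocounts and filters, GC correction, a replicate block and no trend.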

Additional observations from a re-analysis of the deposited data

How the results depend on the processing

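Over 18 alternatives METTL1 stayed lower and CDKN1A higher, both past the threshold. The settings not tied to spike-ins were TPM, median ratios, quantiles, TPM with GC correction and TPM without sgMETTL1.3 replicate 1, given below in this order. In each of the 5, 2 members rose and 0 fell, in place of 1 and 3. Members lower numbered 5 with GC correction of the deposited values, and between 1 and 5 with 1 library left out (5 without sgMETTL1.3 replicate 1, 1 without sgNS replicate 2). All genes higher numbered 3093, 3219, 2978, 3565 and 4445 in the 5 settings, 510 when a mean of 5 was required, since fewer genes entered, and 534 to 1037 with 1 library left out. All genes lower numbered 3147, 3296, 3231 and 4019 in the first 4, and 4880 to 7538 with 1 library left out.

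Several log2 fold changes that were negative on the spike-in scale turned positive there, those of CDKN1B and CDKN3 among them, which were called lower on that scale. CDKN2A became 0.180, 0.187 and 0.250 with the first 3 settings and 0.0542 with the last. CDKN2C became 0.174, 0.181, 0.192, 0.0252 and 0.0878 in the 5 settings. CDKN1B became 0.0682 with quantiles and 0.0018 and 0.0418 with the last 2, and CDKN3 became 0.0348 with the last. CCNE1 became 0.143, 0.150, 0.156, 0.0686 and 0.184. CCND1 became 0.0470, 0.0515, 0.0145 and 0.0328 in the settings other than quantiles. CDKN2B-AS1 became 0.0640 and 0.0783 with the last 2. CDKN2D turned negative with GC correction of the deposited values (-0.0664), and ran between -0.0186 (without sgMETTL1.3 replicate 1) and 0.237 with 1 library left out. KLHL9 ran between -0.00051 (without sgMETTL1.3 replicate 3) and 0.130. The cause of these changes was not tested. Of 33 named genes that are no members, 25 kept direction and side of the threshold wherever they were tested. Most of them were picked for a small p on the spike-in scale or for likeness to CDKN1A, and some after their values were seen. The count is thus no separate support, and it leaves out the genes most like the other members.

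With 1 library left out the 4 log2 ratio differences ranged from 1.29 to 1.47 (CDKN1A to CDKN1B), 1.61 to 1.81 (CDKN1A to CDK2), 0.32 to 0.36 (CDKN1B to CDK2) and 1.01 to 1.09 (CDKN3 to CDK1). Same-numbered libraries did not deviate together across genes (correlations of -0.0137, 0.00455 and -0.0385). This cannot show whether they were grown or prepared together, which the labels do not say. With a replicate block 1 member rose and 2 fell, CDKN2B being lost (-0.38, adjusted p = 0.0603), and of all genes 814 rose and 5861 fell. Pairing by number leaves the ratio differences as they are by construction (1.73 for CDKN1A to CDK2) and allows no exact p under 0.25. The read depth is unknown, so counting error at the level of CDKN2B cannot be given.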

Other observations

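Genes whose symbols begin with CDKN but which are no inhibitors were read by name after their values were seen. CDKN2AIP, which encodes a partner of ARF, averaged 18.9 ± 1.83 in sgMETTL1.3 and 25.7 ± 1.5 in sgNS (SD, n = 3 each) on the spike-in scale, lower by limma (log2 fold change -0.43, adjusted p = 0.00624). Its relative CDKN2AIPNL averaged 30.5 ± 4.42 in sgMETTL1.3 and 39.8 ± 1.91 in sgNS, also lower (log2 fold change -0.38, limma adjusted p = 0.015). Their values as TPM were -0.08 and -0.03, and neither passed. CDKN2A-AS1 was below 1 in every library and was not tested.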
